A study of Homo sapiens with 6 samples.

Results

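The 8 genes described here encode integrin chains that bind the extracellular matrix: the alpha chains ITGA2, ITGA3, ITGA5 and ITGAV, and the beta chains ITGB1, ITGB5, ITGB6 and ITGB8. They were taken by symbol from a table of 58302 gene entries, and all 8 matched 1 entry each and passed the filter on low counts. The cells were Ker-CT, a human skin keratinocyte line immortalised with telomerase and CDK4, and 3 libraries carried siRNA against KMT2C (siKMT2C) and 3 a control siRNA (siNC). Both groups had received the M5 cytokines for 24 h before RNA was taken: TNF-α, oncostatin M, IL-22, IL-17A and IL-1α at 10 ng/ml each, a mixture used to model psoriasis in culture. KMT2C is a histone H3 lysine 4 methyltransferase, and the comparison asks how its depletion alters expression in such cells. All libraries come from 1 line, cultures without M5 were not analysed here, and no label says whether replicates were separate cultures, so p-values measure only the spread between these libraries.

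An integrin is a pair of 1 alpha and 1 beta chain that spans the plasma membrane, with matrix outside and talin, kindlin and actin inside. In the epidermis α2β1 binds collagen, α3β1 binds laminin-332 of the basement membrane, and α5β1 binds fibronectin. The αv chain pairs with several beta chains: αvβ5 binds vitronectin, and αvβ6 and αvβ8 bind latent TGF-β and release or expose the active growth factor. Transcript levels are measured here, not protein or pairing at the cell surface.

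The libraries held 14409277 to 17539519 counts, and the 8 genes together took 0.361% to 0.433% of them. KMT2C itself was lower in each siKMT2C library, at 32.0, 30.8 and 27.3 CPM against 87.9, 82.0 and 72.6 CPM in siNC (CPM, counts relative to library size after TMM scaling). The fitted KMT2C log2 fold change was -1.43 (SE 0.14, edgeR adjusted p = 0.00786, 3 libraries in each group). That call held in 3 of the 6 fits that left out 1 library, with edgeR adjusted p from 0.00399 to 0.0634. The keratinocyte markers were all detected, summing to 12868 to 18386 CPM in siKMT2C and 12965 to 19882 CPM in siNC. Without overlap, TP63 (mean 115.8 CPM against 186.2 CPM in siNC) and PKP1 (103.6 against 130.2 CPM) were lower in siKMT2C. COL17A1 (1355 against 820 CPM) was higher without overlap, and edgeR called none of the 9 markers. Over all genes tested, 24.1% did not overlap. The 7 fibroblast markers summed to 2.25 to 3.01 CPM in siKMT2C and 4.71 to 5.09 CPM in siNC, the 6 leukocyte markers to at most 15.2 CPM, the 5 melanocyte markers to at most 3.38 CPM and the 5 endothelial markers to at most 0.208 CPM. The leukocyte markers PTPRC and CD3E had 0 counts in all 6 libraries, and LYZ had 1 in total. CD68 made up most of the leukocyte sum, at a mean of 13.5 CPM in siKMT2C and 11.8 CPM in siNC. CD14 (0.21 and 1.00 CPM) and ITGAX (0.10 and 0.59 CPM) were lower in siKMT2C. The fibroblast sums did not overlap between the groups, but not all 7 markers moved the same way, and only 2 of them passed the filter on low counts. DCN was at a mean of 1.05 CPM in siKMT2C and 3.15 CPM in siNC, the highest mean of the 7. THY1 (0.17 and 0.50 CPM), PDGFRB (0.23 and 0.39 CPM), PDGFRA (0 and 0.056 CPM) and TWIST2 (0 and 0.019 CPM) were lower in siKMT2C, as DCN was. LUM (0.47 and 0.29 CPM) and COL3A1 (0.79 and 0.45 CPM) were higher in siKMT2C. The part of the fibroblast markers in the results was not tested.

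One control library stood apart, and the difference followed base composition. In siNC replicate 3 the 4640 tested genes whose transcripts had a GC content of 54.3% or more were higher than in siNC replicates 1 and 2, with a median log2 difference of 0.47. The 2468 genes with a GC content of 40.2% or less were lower there, with a median of -0.45. In siKMT2C replicate 3 the same medians were 0.24 and -0.20. The bounds of both ranges were set by the integrins, so each of the 8 lies in 1 of them by choice. Among the integrins, ITGA3, ITGA5 and ITGB5 lie in the first range and the other 5 in the second. Against the median of their range, ITGB6 was higher in siNC replicate 3 (0.14) and ITGAV in siKMT2C replicate 3 (0.079). The part of this difference in the results was not tested other than by the fits without siNC replicate 3 and with a correction for GC content and transcript length, which are given beside the members.

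**Figure D1:**
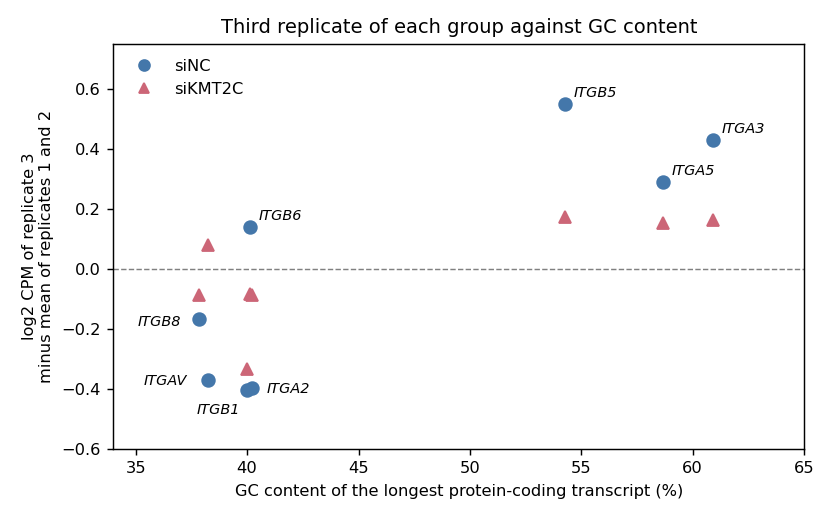
Each member's log2 CPM in replicate 3 minus the mean of replicates 1 and 2 of its group (vertical axis) against the GC content of its longest protein-coding transcript in percent (horizontal axis), with circles for siNC and triangles for siKMT2C. In siNC the 3 genes richest in GC lie between 0.29 and 0.55, and the other 5 between -0.40 and 0.14.

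Of the 8 genes, 4 were lower in siKMT2C with no overlap between the groups: ITGAV, ITGB8, ITGA3 and ITGA2. None was higher without overlap, and 4 overlapped, among them ITGB1 counted apart from its pseudogene. Over all 15063 genes tested, 12.3% were lower and 11.8% higher without overlap. None of the 8 passed the edgeR quasi-likelihood test after Benjamini-Hochberg adjustment over all genes, where 1.5% of genes did (0.81% lower and 0.69% higher). At an unadjusted p under 0.05, 4 of the 8 were lower, against 9.01% of all genes. limma-voom called 0 of the 8 and 214 of all genes. DESeq2 called 3 of the 8, all lower, where it called 5.68% of all genes and 3.01% lower. The GC and length correction gave 4 members called, all lower, where 8.75% of genes were called and 3.82% lower. Without siNC replicate 3 edgeR called 3 members, all lower, where 4.04% of genes were called and 2.33% lower. With the replicate number as a block 3 members were called lower, beside 6.43% of genes called and 3.4% lower, and with both block and correction also 3, beside 8.98% and 3.76%. The log2 fold change was negative for 7 of the 8 and positive for ITGB1, with a median of -0.28 over the 8 and -0.00 over all genes.

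**Figure D2:**
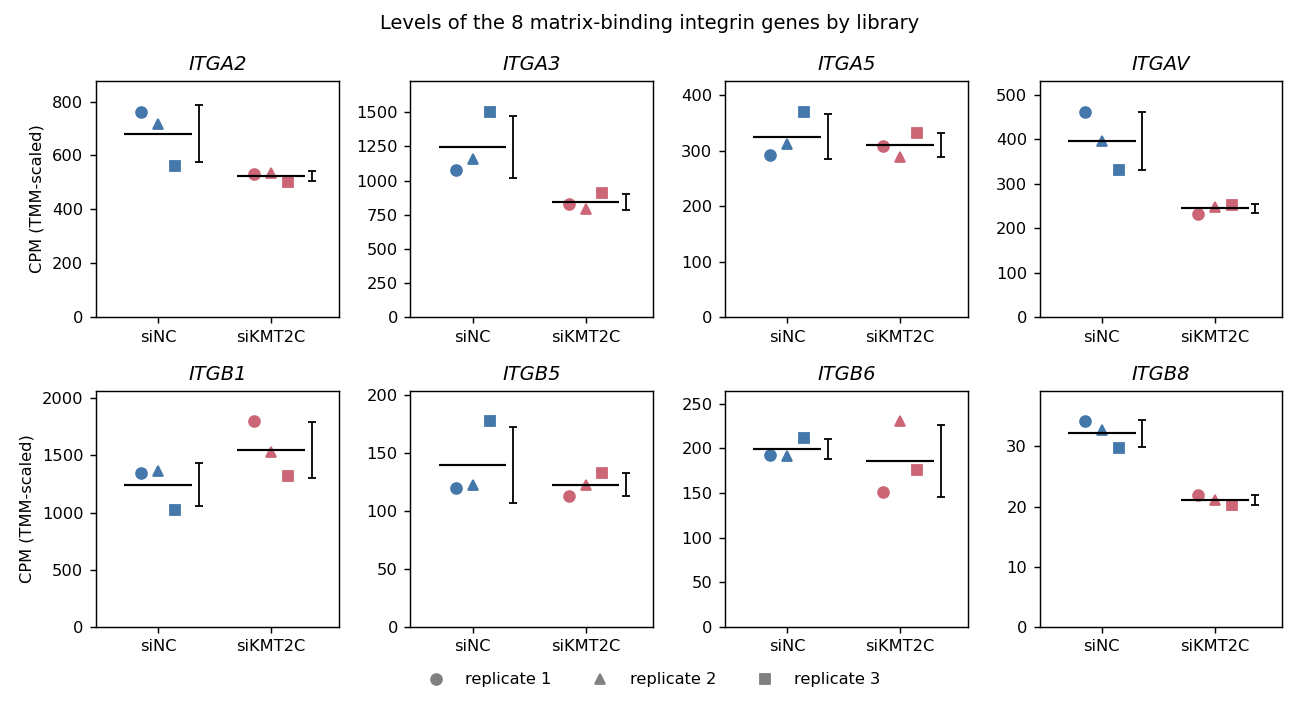
CPM of each integrin gene (vertical axes, from 0) in siNC (blue) and siKMT2C (red); circles, triangles and squares are replicates 1, 2 and 3, horizontal lines are means and bars are SD (n = 3). The groups do not overlap for ITGA2, ITGA3, ITGAV and ITGB8.

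ITGAV encodes the αv chain, which receptors for vitronectin, fibronectin and latent TGF-β share. Its gene (ENSG00000138448) spans chromosome 2, 186590065 to 186680901, on GRCh38. It was at 232.7, 247.1 and 253.3 CPM in siKMT2C and at 461.8, 397.1 and 331.4 CPM in siNC. The siKMT2C values lay close together, and each was below the lowest control, siNC replicate 3. The fitted log2 fold change was -0.70 (SE 0.14, edgeR adjusted p = 0.0624), which puts siKMT2C at 61.6% of siNC (95% interval 48.9% to 77.5%). Without siNC replicate 3 the value was -0.82 (edgeR adjusted p = 0.0140), and with the GC and length correction it was -0.63 (edgeR adjusted p = 0.0125). DESeq2 also called it (-0.70, DESeq2 adjusted p = 0.00437), while limma-voom did not (-0.69, limma-voom adjusted p = 0.0667). In the remaining fits that left out 1 library, the edgeR adjusted p of ITGAV ran from 0.129 to 0.275. Of the 15 alternatives 5 called it.

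ITGB8 encodes the β8 chain, whose only known alpha partner is αv. Its gene (ENSG00000105855) lies on chromosome 7, 20330702 to 20415754. It was the scarcest of the 8, with 328 to 359 counts in siKMT2C libraries and 472 to 597 in siNC libraries. Its levels were 21.96, 21.1 and 20.3 CPM in siKMT2C against 34.2, 32.7 and 29.7 CPM in siNC. The groups were well apart compared with the spread inside each, 0.843 CPM and 2.25 CPM (SD, n = 3). The log2 fold change was -0.61 (SE 0.13, edgeR adjusted p = 0.0700), or 65.6% of siNC (95% interval 53.0% to 81.1%). It was -0.67 without siNC replicate 3 (edgeR adjusted p = 0.0351) and -0.52 after the GC and length correction (edgeR adjusted p = 0.0356). In the remaining fits that left out 1 library, the edgeR adjusted p of ITGB8 ran from 0.161 to 0.264. limma-voom did not call it (-0.61, limma-voom adjusted p = 0.0735), and of the 15 alternatives 5 did. ITGAV and ITGB8 were thus the pair of partner chains with the smallest p-values of the 8.

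The promoter windows of ITGAV (the first of its 2) and ITGB8 are shown because these are the partner chains with the largest differences; each runs from 250 bases before to 50 after a RefSeq transcription start on GRCh38.p14, 5′ to 3′ on the plus strand, and capitals mark GC boxes (GGGCGG on either strand), the Sp1-type motif.
ITGAV, chr2:186589806-186590105: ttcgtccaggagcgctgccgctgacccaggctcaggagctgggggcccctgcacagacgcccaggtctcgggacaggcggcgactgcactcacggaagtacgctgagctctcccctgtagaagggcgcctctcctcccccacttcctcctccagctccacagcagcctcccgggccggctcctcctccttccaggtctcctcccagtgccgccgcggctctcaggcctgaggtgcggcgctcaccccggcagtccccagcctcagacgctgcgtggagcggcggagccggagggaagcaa
ITGB8, chr7:20330650-20330949: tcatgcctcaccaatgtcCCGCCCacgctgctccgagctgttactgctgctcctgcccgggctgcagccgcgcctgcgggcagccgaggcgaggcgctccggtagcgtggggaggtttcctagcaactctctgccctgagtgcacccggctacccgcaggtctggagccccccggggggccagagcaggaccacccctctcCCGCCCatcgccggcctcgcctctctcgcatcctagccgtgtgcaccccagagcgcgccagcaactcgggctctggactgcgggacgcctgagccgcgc

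Both windows were rich in GC, at 70.7% for ITGAV and 71.7% for ITGB8. The ITGB8 window held 2 GC boxes and the ITGAV window held 0; of all 35116 windows of this length, 45.0% held at least 1. The AP-1 motif (TGANTCA), the TATA box (TATAAA) and the TEAD motif (GGAATG), searched on both strands, were in neither window; they occur in 7.71%, 11.5% and 14.0% of all windows. Of the 8 genes, all but ITGA3 had windows, 11 in all. A GC box occurred in 7 of the 11 windows (5 of these 7 genes) and a TEAD motif in 2 windows (2 genes). An AP-1 motif (ITGA5) and a TATA box (ITGB1) occurred in 1 window each. The shares over all windows compare with these window counts, not with the gene counts. A match is a description of the letters and was not tied to any measurement here.

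The 7-mer GTATAAA was taken from earlier results on these same data, so what follows is a description and no independent evidence. ITGAV holds 3 copies in its 3′ UTR of 3609 bases and ITGB8 holds 1 in 5757 bases; the other 6 hold none. The sites are shown with the 7-mer in capitals, on GRCh38 from GENCODE 29 transcripts, plus strand.
ITGAV, chr2:186677956-186677982: tttttaacttGTATAAAttttaggtca
ITGAV, chr2:186678137-186678163: gctatttacaGTATAAAaaaagcattt
ITGAV, chr2:186678569-186678595: aagttcgttaGTATAAAttacttttct
ITGB8, chr7:20415134-20415160: agaatattgaGTATAAAgtactttaat

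Of 12219 tested protein-coding genes whose 3′ UTR reached 50 bases, 17.2% held the 7-mer, and 103 held 3 or more copies as ITGAV does. Those 103 had a median log2 fold change of -0.25, with 8 called lower and 0 called higher by edgeR. The 1638 genes with 1 copy, as ITGB8 has, had a median of -0.085, with 25 called lower and 12 higher. The 366 genes with 2 copies had a median of -0.18, with 14 called lower and 1 higher. The 10112 genes without a copy had a median of 0.01, with 68 called lower and 83 higher. Over all 12219 the median was -0.01, with 115 called lower (0.94%) and 96 higher. The 7-mer was chosen from these data, so the medians by copy number are no test of it. Long 3′ UTRs hold it more often: 30.8% of the 1440 genes within 20% of the ITGAV length did. Their median was -0.05, with 25 called lower (1.74%) and 12 higher. Of the 773 genes within 20% of the ITGB8 length 43.3% did, with a median of -0.059, 13 called lower (1.68%) and 6 higher. For the 3′ UTR length of ITGA2, which holds no copy there, it was 34.4% of 1257 genes. Their median was -0.068, with 24 called lower (1.91%) and 11 higher. These sets by length were not split by copy number. ITGA3 and ITGA2, the other members without overlap, hold no copy in the 3′ UTR, though ITGA2 holds 1 in its coding sequence.

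ITGA3 encodes the α3 chain, which with β1 is the main laminin-332 receptor of keratinocytes outside the hemidesmosome. It lies on chromosome 17, 50055968 to 50090481 (ENSG00000005884). Its levels were 827.9, 791.7 and 906.8 CPM in siKMT2C and 1078, 1157 and 1503 CPM in siNC. siNC replicate 3 was far above the other controls, and all siKMT2C libraries were below all controls. The log2 fold change was -0.57 (SE 0.15, edgeR adjusted p = 0.113), or 67.6% of siNC (95% interval 53.1% to 85.9%). The difference was smaller without siNC replicate 3, at -0.42 (edgeR adjusted p = 0.0806), and at -0.38 after the GC and length correction (edgeR adjusted p = 0.0275). Of the 15 alternatives 4 called ITGA3.

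ITGA2 encodes the α2 chain of the collagen receptor α2β1 and lies on chromosome 5, 52989326 to 53094779 (ENSG00000164171). It stood at 531.9, 535.0 and 502.2 CPM in siKMT2C and at 762.0, 717.4 and 561.9 CPM in siNC. Here siNC replicate 3 was the lowest control and lay nearest to the siKMT2C libraries, which it still exceeded. The log2 fold change was -0.38 (SE 0.14, edgeR adjusted p = 0.220), or 76.9% of siNC (95% interval 61.6% to 96.0%). Without siNC replicate 3 it was -0.51 (edgeR adjusted p = 0.0376), and after the GC and length correction -0.30 (edgeR adjusted p = 0.0450). These were the only 2 of the 15 alternatives that called ITGA2.

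ITGB1 encodes the β1 chain, the common partner of α2, α3 and α5, and was the only member with a positive value. It lies on chromosome 10, 32900319 to 33005792 (ENSG00000150093). The siKMT2C libraries had 1797, 1529 and 1316 CPM and the siNC libraries 1348, 1363 and 1025 CPM. The groups overlapped, since siKMT2C replicate 3 lay below siNC replicates 1 and 2. The log2 fold change was 0.31 (SE 0.16, edgeR adjusted p = 0.388), with a 95% interval for siKMT2C of 95.5% to 161.6% of siNC. It was 0.18 without siNC replicate 3 (edgeR adjusted p = 0.506), 0.19 without siKMT2C replicate 1 (edgeR adjusted p = 0.760) and 0.27 after the GC and length correction (edgeR adjusted p = 0.187). Over the 6 fits that left out 1 library, ITGB1 ran from 0.18 to 0.42. A processed pseudogene, ITGB1P1, took 15.38% to 20.02% of the reads of the pair in each library, so part of the ITGB1 signal may have been counted there. ITGB1P1 was at 326.6, 332.3 and 329.5 CPM in siKMT2C and 261.6, 272.6 and 221.9 CPM in siNC. With both summed, ITGB1 plus ITGB1P1 was at 2124, 1861 and 1646 CPM in siKMT2C and at 1610, 1636 and 1246 CPM in siNC, a log2 fold change of 0.33 (SE 0.15, edgeR adjusted p = 0.331). The summed groups no longer overlapped, all siKMT2C libraries lying above all controls, but edgeR did not call the difference.

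ITGA5 encodes the α5 chain of the fibronectin receptor α5β1, on chromosome 12, 54395261 to 54419460 (ENSG00000161638). It was at 308.8, 288.8 and 332.1 CPM in siKMT2C and at 293.0, 313.1 and 370.5 CPM in siNC. The groups overlapped throughout, and the log2 fold change of -0.07 (SE 0.13, edgeR adjusted p = 0.841) had a 95% interval of 77.2% to 117.4% of siNC. Its sign turned without siNC replicate 3 (0.025) and after the GC and length correction (0.082).

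ITGB5 and ITGB6 encode β chains of αv; β6 is known as a chain that keratinocytes make in wounds. ITGB5 (chromosome 3, 124761948 to 124901418, ENSG00000082781) was at 112.6, 122.4 and 132.4 CPM in siKMT2C and at 119.5, 122.4 and 177.1 CPM in siNC. Only siNC replicate 3 lay away from the rest. Its log2 fold change was -0.19 (SE 0.18, edgeR adjusted p = 0.653), 0.011 without that library and -0.062 after the GC and length correction. ITGB6 (chromosome 2, 160099666 to 160200313, ENSG00000115221) was at 150.9, 229.9 and 175.9 CPM in siKMT2C and at 192.8, 191.8 and 212.0 CPM in siNC. The siKMT2C libraries spread over the whole range of the controls and beyond it. Its log2 fold change was -0.10 (SE 0.17, edgeR adjusted p = 0.821), with a 95% interval of 71.3% to 122.1% of siNC, and 0.030 without siKMT2C replicate 1. For ITGB6 the value was -0.060 without siNC replicate 3 and -0.14 after the GC and length correction.

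**Figure D3:**
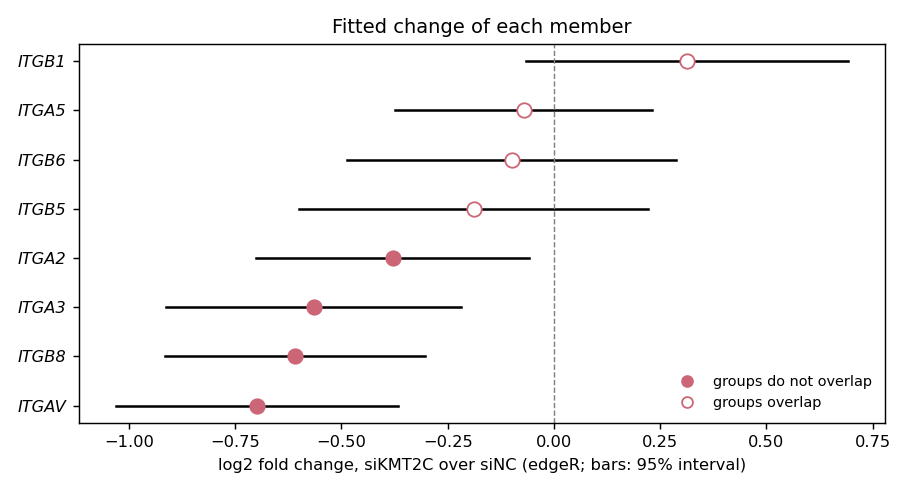
Fitted log2 fold change of each integrin gene, siKMT2C over siNC, with its 95% interval (edgeR); filled points mark genes whose groups do not overlap. ITGAV has the most negative value, -0.70, and ITGB1 the only positive one, 0.31.

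Levels of different genes can be compared only per length. By the deposited FPKM (fragments scaled by gene length and library size), ITGB1 led in siNC at 118.0 ± 17.7, then came ITGA2 at 75.8 ± 11.5 and ITGA3 at 75.1 ± 13.9 (SD, n = 3). ITGAV followed at 29.5 ± 4.80, ITGA5 at 25.8 ± 3.27, ITGB5 at 15.3 ± 3.62, ITGB6 at 15.2 ± 0.931 and ITGB8 at 1.83 ± 0.124 FPKM. By these values ITGA2 and ITGA3, ITGAV and ITGA5, and ITGB5 and ITGB6 did not differ beyond their spread. In siKMT2C, ITGA5 (24.1 ± 1.85 FPKM) stood above ITGAV (17.8 ± 0.724 FPKM). The lengths behind these FPKM values exceed those of single transcripts: 16725 bases for ITGA3, against 4888 bases for its longest protein-coding transcript, and 9051 against 7869 for ITGA2. Per such transcript, ITGA3 stood at 257.1 ± 47.6 in siNC and ITGA2 at 87.1 ± 13.2 on the same scale, so their order depends on the length used; ITGA5 (73.9 ± 9.37) then also came before ITGAV (56.9 ± 9.27). Per transcript, ITGB6 (42.9 ± 2.63) also stood above ITGB5 (32.2 ± 7.62) in each siNC library. ITGB1 stayed highest and ITGB8 lowest with either length.

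Shares within the family do not depend on library scaling. ITGA5 made up 16.2%, 15.4% and 16.9% of the summed FPKM of the 4 alpha chains in siKMT2C, and 11.2%, 12.1% and 14.1% in siNC. The groups did not overlap, and the difference was 3.66 percentage points (exact two-sided permutation p = 0.1, the smallest that 3 against 3 libraries allow; 0.4 adjusted over 8 shares). The level of ITGA5 itself overlapped between the groups (log2 fold change -0.07), while those of ITGA2, ITGA3 and ITGAV were lower in siKMT2C. These shares rest on the lengths behind the deposited FPKM. Without division by length the ITGA5 difference was 3.87 percentage points. ITGB8 made up 0.637%, 0.675% and 0.748% of the 4 beta chains in siKMT2C and 1.23%, 1.17% and 1.26% in siNC (exact permutation p = 0.1, 0.4 adjusted). The share of ITGAV was 11.5%, 12.4% and 12.1% in siKMT2C and 16.6%, 14.5% and 11.9% in siNC, where siNC replicate 3 lay inside the siKMT2C range (exact permutation p = 0.3). The shares of ITGA2 and ITGA3 overlapped between groups, and the sign of both differences turned without siNC replicate 3. ITGB1 took 87.2%, 81.8% and 81.1% of the beta chains in siKMT2C and 81.1%, 81.2% and 72.3% in siNC (exact permutation p = 0.3). With ITGB1P1 added, its mean share was 85.9% in siKMT2C and 81.2% in siNC (exact permutation p = 0.1, not adjusted). Without division by length and without ITGB1P1 the exact permutation p was also 0.1, so the overlap depends on this choice.

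**Figure D4:**
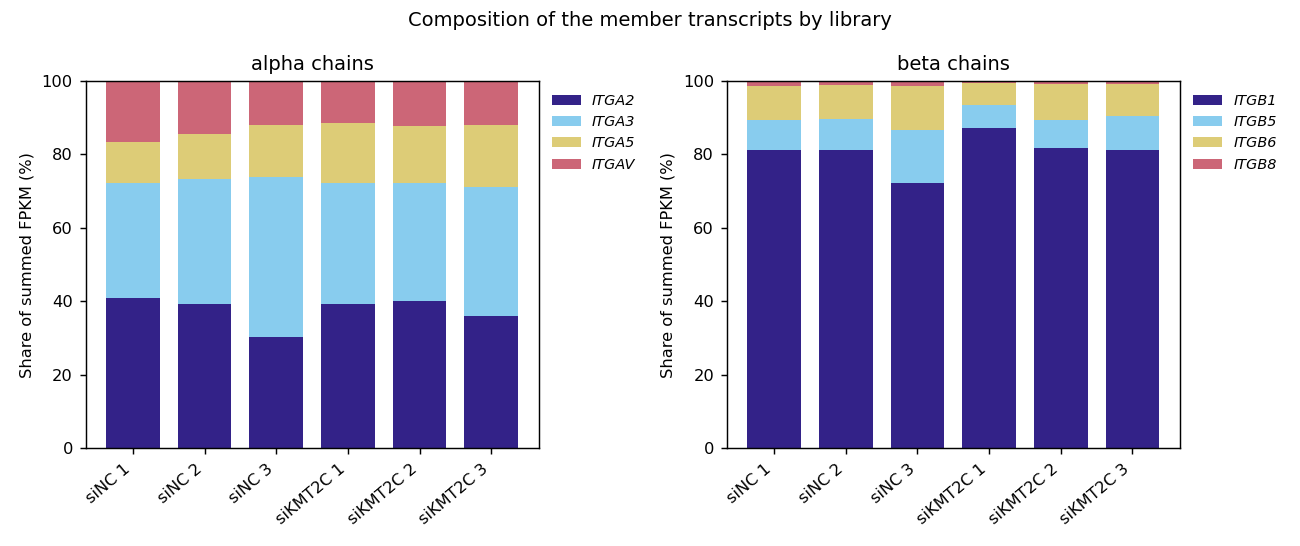
Share of each gene in the summed FPKM of the 4 alpha chains (left) and of the 4 beta chains (right), in percent, for each of the 6 libraries. ITGB1, without its pseudogene, makes up 72.3% to 87.2% of the beta chains, and ITGA5 a larger share of the alpha chains in each siKMT2C library than in any siNC library. The CPM of ITGA5 itself overlapped between the groups.

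Of 6 within-library log2 ratios per length, 3 did not overlap between the groups. ITGB1 over ITGAV was 3.30, 2.98 and 2.73 in siKMT2C and 1.90, 2.13 and 1.98 in siNC, a difference of 1.00 (exact two-sided permutation p = 0.1, adjusted p = 0.2 over the 6 ratios). ITGA5 over ITGAV was 0.50, 0.31 and 0.48 in siKMT2C and -0.57, -0.25 and 0.25 in siNC, a difference of 0.62 (exact permutation p = 0.1, adjusted p = 0.2). ITGB6 over ITGAV was -0.59, -0.06 and -0.49 in siKMT2C and -1.22, -1.01 and -0.61 in siNC, a difference of 0.57 (exact permutation p = 0.1, adjusted p = 0.2). Each of these has ITGAV below the line, and they share its values. The ratios ITGB6 over ITGB8 (difference 0.49, exact permutation p = 0.2), ITGA2 over ITGA3 (0.18, exact permutation p = 0.8) and ITGB6 over ITGB5 (0.05, exact permutation p = 1) overlapped.

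The other integrin chains gave the frame for the 8. Of 18 such genes, 6 passed the filter on low counts, 5 of the 6 had negative values, and their median log2 fold change was -0.37. edgeR called none of them, 1 had an unadjusted p under 0.05, DESeq2 called 1 (lower) and limma-voom 0. Over all genes 16.9% had such a p, and DESeq2 called 5.68%, with 3.01% lower. The GC and length correction and edgeR without siNC replicate 3 each called 1 of these integrin genes, lower. They called 3.82% and 2.33% of all genes lower. ITGA6, the laminin-binding partner of β4 in the hemidesmosome, was at 867.6 ± 3.27 CPM in siKMT2C and 1232 ± 87.5 CPM in siNC (-0.51, SE 0.11, edgeR adjusted p = 0.0665). ITGB3, the platelet-type partner of αv, was barely present, at 0.599 ± 0.143 and 1.06 ± 0.237 CPM (-0.81, SE 0.36, edgeR adjusted p = 0.309). ITGA8, ITGAD and ITGAL had 0 counts in every library.

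Among 20 matrix ligands, 18 were tested, with 9 negative and 9 positive values and a median of 0.01. CCN2, a matricellular protein that binds integrins, rose from 10.3 ± 1.39 to 21.6 ± 2.14 CPM (1.07, SE 0.17, edgeR adjusted p = 0.0319) and was the only ligand that edgeR called. At an unadjusted p under 0.05 there were 4 ligands, 2 of them lower, beside 16.9% of all genes. limma-voom called 1 higher, DESeq2 2 higher and 2 lower, and the GC and length correction 3 higher and 2 lower. Over all genes limma-voom called 214, DESeq2 5.68% and the correction 8.75%. Of 10 genes of latent TGF-β and its release, 8 were tested, with 5 negative and a median of -0.24. With all 6 libraries, edgeR, DESeq2 and limma-voom called none of them, and 1 had an unadjusted p under 0.05, beside 16.9% of all genes. Without siNC replicate 3 edgeR called 1 of them lower, beside 2.33% of all genes, and the GC and length correction called 0. TGFB2, one of the TGF-β isoforms, was at 3.09 ± 0.377 CPM in siKMT2C and 6.28 ± 2.16 CPM in siNC (-1.02, SE 0.29, edgeR adjusted p = 0.136). TGFB3 was at 0.582 and 0.939 mean CPM (-0.69, SE 0.37, edgeR adjusted p = 0.402).

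Inside the cell, 22 of 24 activators and scaffold proteins were tested, with a median of -0.05, 15 negative values and 7 with an unadjusted p under 0.05, all lower, where 16.9% of all genes had such a p and 9.01% were lower with it. KANK1, which binds talin at the rim of adhesions, fell from 83.5 ± 3.99 to 50.2 ± 3.41 CPM (-0.73, SE 0.12, edgeR adjusted p = 0.0352) and was the only edgeR call in the list. limma-voom called 1 gene of the list, DESeq2 3, the GC and length correction 2 and edgeR without siNC replicate 3 also 2, all lower. The shares of all genes called lower were 3.01% with DESeq2, 3.82% with the correction and 2.33% without siNC replicate 3. All 20 adhesion kinases and adaptors were tested, with a median of -0.10 and no edgeR call (4 at an unadjusted p under 0.05, none lower, beside the same 16.9% of all genes; DESeq2 0, limma-voom 0). Their smallest p-values were those of the GTPase RAC1 (445.2 ± 35.6 against 316.1 ± 40.5 CPM; 0.49, SE 0.13, edgeR adjusted p = 0.119) and the Src-inhibiting kinase CSK (65.6 ± 9.98 against 41.5 ± 11.3 CPM; 0.66, SE 0.21, edgeR adjusted p = 0.174). After the GC and length correction 4 of these 20 were called, all higher, against 741 higher among the 15022 genes tested and 8.75% called in either direction.

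Of the 6 integrin inhibitors 5 were tested and none called by edgeR, DESeq2 or limma-voom (0 at an unadjusted p under 0.05), and the adaptor DOK1 was at -0.48 (SE 0.33, edgeR adjusted p = 0.518). The 16 trafficking genes had a median of -0.14 and no edgeR call (3 at an unadjusted p under 0.05, 2 of them lower, beside 16.9% of all genes). DESeq2, which called 5.68% of all genes, called 1 of the 16, and limma-voom called 0. Among them the endocytic adaptor DAB2 was at 15.1 ± 1.19 CPM in siKMT2C and 22.4 ± 1.82 CPM in siNC (-0.56, SE 0.15, edgeR adjusted p = 0.113), and the GTPase ARF6 had -0.35 (SE 0.12, edgeR adjusted p = 0.203). Of 13 membrane partners SDC4, the syndecan that binds fibronectin beside α5β1, rose from 198.5 ± 16.7 to 376.6 ± 37.2 CPM (0.92, SE 0.13, edgeR adjusted p = 0.0218), and the list's median was -0.02. It was the only edgeR call of that list, where DESeq2 called 2, both higher, and limma-voom 1. Of all 15063 genes DESeq2 called 402 higher and limma-voom 106. The calls of CCN2, KANK1 and SDC4 each held in 1 of the 6 fits that left out a library, that without siNC replicate 3; in the other 5 their edgeR adjusted p ran from 0.0742 for SDC4 to 0.198 for KANK1, with the sign kept.

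**Figure D5:**
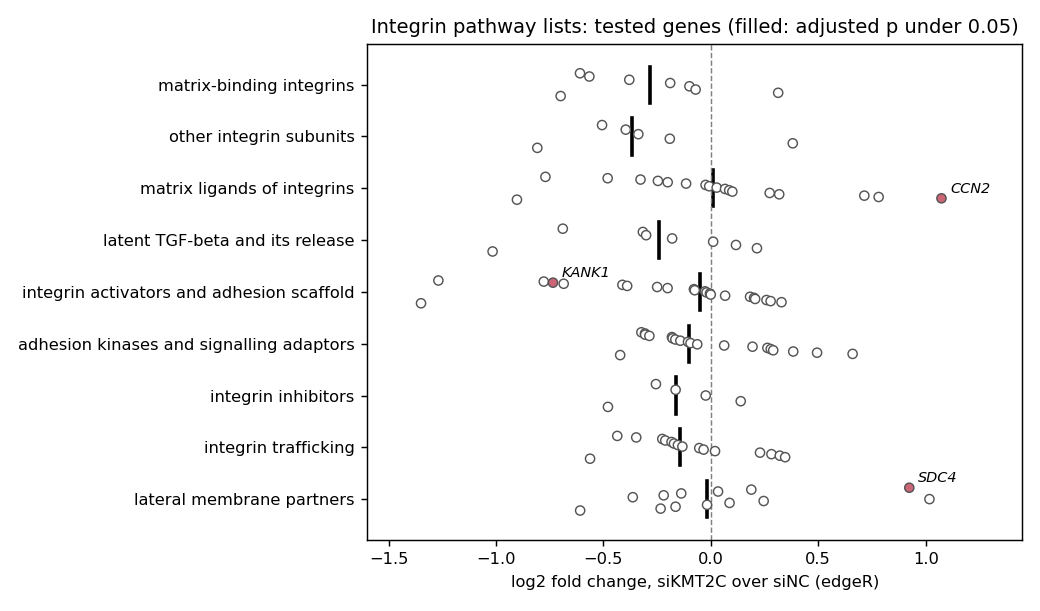
Log2 fold change, siKMT2C over siNC, of each tested gene (circles) in the 8 members and 8 lists around them; vertical bars are list medians and filled circles are genes with an edgeR adjusted p under 0.05. The members' median is -0.28, and CCN2, SDC4 and KANK1 are the filled points.

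By library pattern, the genes most like ITGAV among 12506 protein-coding genes were TFAM (Pearson r = 0.997 over the 6 libraries), KBTBD7 (r = 0.996) and BMT2 (r = 0.995), of log2 CPM. Of these BMT2 fell (-1.08, SE 0.17, edgeR adjusted p = 0.0327), while TFAM (-0.89, SE 0.17, edgeR adjusted p = 0.0508) and KBTBD7 (-0.72, SE 0.16, edgeR adjusted p = 0.0734) were not called. With so few libraries many genes reach such values, and 190 had an r above 0.95 with ITGAV. Those most like ITGB1 were NEMP2 (r = 0.991), COA7 (r = 0.982) and CCDC138 (r = 0.981), none of them called by edgeR. The points share the 6 libraries, their depth and the base composition difference of siNC replicate 3.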

How the data were processed

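Per the labels' protocols, RNA was column-purified and libraries came from a SMARTer mRNA kit. The authors deposited raw counts per gene and FPKM values in 1 table; the submitters' processing notes name CASAVA 1.8, TopHat2 2.0.6 and the mouse build mm10, although the identifiers are human Ensembl ones. The human build, the annotation, the counting program and its use of strand are not stated by any label or header used here. FPKM as deposited equalled the counts rescaled by library total and a fixed length per gene, within a relative deviation of 7.7e-05 in 13607 genes.

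Coordinates and transcripts are from GENCODE 29 (GRCh38), which held 58039 identifiers (99.55%), and promoters from RefSeq. Counts were tested in edgeR 4.0.16 (R 4.3.3): filterByExpr, TMM scaling, robust quasi-likelihood F test, Benjamini-Hochberg adjustment over 15063 genes, called under 0.05. Standard errors (SE) were taken as |log2 fold change| divided by √F. The step was checked on simulated data that held no GC difference between libraries. How often it found changes as small as those of the members is not given here. Single shares and ratios had exact two-sided permutation tests (scipy 1.17.1). Alternatives were DESeq2 1.42.0, limma-voom 3.58.1, other scalings and filters, a replicate block, a loess correction (span 0.3) for transcript GC content and length, and leaving out each library. Summing ITGB1 with its pseudogene ITGB1P1 and dividing by transcript length were chosen after seeing the data, as were the promoter motifs and the GC ranges. The members and lists were chosen with earlier results of these data known. Named genes are the 8 members, KMT2C and its paralog KMT2D (log2 fold change -0.34, SE 0.23, edgeR adjusted p = 0.501), the called genes of each pathway list (at most 4) or otherwise the 2 with the smallest p, and the 3 genes with the highest correlation to ITGAV and to ITGB1; 1 gene that this rule names is not reported here. Cell type markers are named in addition to these genes. Replicates differed beyond sampling noise in every pair. Of the overlapping genes with counts, ITGB1-DT had most (380, against 136077 for ITGB1), and AC004130.1 had 93 against 2614 for ITGB8; AC092153.1, which overlaps ITGB6, was not analysed here, and without strand their reads cannot be told apart.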

Additional observations from a re-analysis of the deposited data

How the results depend on the processing

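ITGAV, ITGB8, ITGA3 and ITGA2 had negative values and ITGB1 a positive one in all 15 alternatives. The number of members called, 0 with edgeR, was 3 with DESeq2, 3 with the replicate block, 4 after the GC and length correction and 3 after that correction with the block, and 0 to 3 when 1 library was left out, with 3 only without siNC replicate 3. Over all genes the count of 226 became 855, 968, 1315 and 1349 in the same order, and 16 to 620 with 1 library left out. Higher genes made up 46.0% of the calls, 56.3% after the correction and 58.1% after it with the block. The block paired samples that share only a number: same-numbered samples correlated at 0.0195, 0.107 and 0.389 in their deviations from the group means, and siKMT2C replicate 2 correlated best with siNC replicate 1 (0.319), so not every sample correlated best with its own number. With the replicate block ITGAV had -0.69, ITGB8 -0.61 and ITGA3 -0.55 (edgeR adjusted p = 0.0216, 0.0329 and 0.0234).

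The sign of ITGA5 turned after the GC and length correction (0.082 without and 0.083 with the block). Leaving out 1 library gave -0.14 to 0.025 for ITGA5, -0.29 to 0.011 for ITGB5 and -0.28 to 0.030 for ITGB6. It gave -0.12 to 0.13 for the ITGB6/ITGB5 ratio difference, -0.090 to 0.37 for ITGA2/ITGA3, and -1.62 to 3.74 and -5.54 to 0.666 percentage points for the shares of ITGA2 and ITGA3. The cause was not tested. ITGB8 had the fewest counts of the members, 328 to 597 a library.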
